A study of Mus musculus with 12 samples.

Results

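The Toll-like receptor family was represented by 10 genes (Tlr1, Tlr2, Tlr3, Tlr4, Tlr5, Tlr6, Tlr7, Tlr8, Tlr9 and Tlr13), taken by gene name from tables of 55487 genes. All 10 passed the expression filter in every comparison, and the remaining mouse receptors, Tlr11 and Tlr12, were kept apart because of their low levels (at most 1.16 and 0.398 TPM, a transcript level scaled to transcript length and to the library's total). The RNA came from wounds with surrounding tissue on the back of 6-week-old male C57BL/6JNarl mice, which had been given 2 full-thickness punch wounds each under a film dressing. The sham group received Pluronic F127 (P-F127) gel once daily, and CAP-treated wounds received the same gel with 10 µM capsaicin, the pungent agonist of the TRPV1 channel, so that every group carried the gel. There were 3 libraries in each of the 4 groups (sham and CAP at day 3 and at day 6), and unwounded skin was not analysed here. Whether libraries of a group came from different mice is not stated in the sources, so that n counts libraries and the tests measure the spread between them, which may be technical.

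Toll-like receptors recognise conserved microbial molecules and molecules released from damaged cells. Tlr1, Tlr2, Tlr4, Tlr5 and Tlr6 act mainly at the cell surface, whereas Tlr3, Tlr7, Tlr8, Tlr9 and Tlr13 sense nucleic acids in endosomes. Most signal through the adaptor Myd88 to NF-kappaB and its inflammatory targets, Tlr3 signals through Ticam1, and Tlr4 uses both routes. In skin wounds the receptors are carried by macrophages, monocytes, neutrophils and dendritic cells and, in part, by keratinocytes and other resident cells.

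The sequences bear on how the receptors were measured and on where they differ. The gene positions in the files were those of GRCm38 (mm10), and all 10 genes are protein coding. Tlr1 (chr5:64924679-64933563, minus strand) and Tlr6 (chr5:64952031-64960097, minus strand) are neighbours 18467 bases apart, and Tlr7 (chrX:167304929-167330558, minus strand) and Tlr8 (chrX:167242696-167264329, minus strand) are 40599 bases apart. The coding sequences of Tlr1 and Tlr6 were identical at 77.0% of aligned bases, against 57.2% to 64.5% in the other pairs of receptors. The longest stretch that Tlr1 and Tlr6 share, 229 bases of the coding sequence of each (chr5:64925537-64925765 and chr5:64953828-64954056, minus strand), is shown because a read that lies inside it fits both genes.
Tlr1 and Tlr6: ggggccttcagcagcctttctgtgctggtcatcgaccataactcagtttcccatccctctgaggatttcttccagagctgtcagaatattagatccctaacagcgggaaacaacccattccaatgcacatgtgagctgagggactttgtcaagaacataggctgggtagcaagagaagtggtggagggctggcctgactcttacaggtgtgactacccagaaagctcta

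Of all 31-base stretches in the transcripts, 20.0% of those of Tlr1 and 16.6% of those of Tlr6 occur in another gene, mostly in each other, and values of these 2 genes are therefore uncertain in that part. For Tlr3 (chr8:45395665-45411080, minus strand) the share was 6.10%, in the overlapping antisense gene Gm45542, which had a mean of 0.103 TPM. The share was 0.667% for Tlr4 (chr4:66827584-66930284, plus strand) and 0 for the other 6 genes. Tlr9 (chr9:106222598-106226883, plus strand) had the highest GC content in its coding sequence, 56.7%, against 39.8% to 48.4% in the other 9.

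Sequences around the start site, from 250 bases before to 50 bases after it, were listed by RefSeq (GRCm38.p6) for 8 of the 10 genes. Those of Tlr9, Tlr1 and Tlr2 are shown because these 3 genes carry the differences between CAP-treated and sham wounds described later. They lie at chr9:106222348-106222647 (plus strand), chr5:64933509-64933808 (minus strand) and chr3:83841559-83841858 (minus strand). Capitals mark matches, on either strand, to TGANTCA (AP-1), to GAGGAAGT (PU.1, the myeloid factor Spi1) and to the NF-kappaB motif.
Tlr9: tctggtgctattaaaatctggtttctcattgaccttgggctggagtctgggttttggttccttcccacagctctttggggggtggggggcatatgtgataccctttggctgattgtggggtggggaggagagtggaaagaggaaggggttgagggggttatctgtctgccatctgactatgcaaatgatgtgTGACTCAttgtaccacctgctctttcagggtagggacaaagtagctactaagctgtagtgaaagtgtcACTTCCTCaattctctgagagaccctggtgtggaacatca
Tlr1: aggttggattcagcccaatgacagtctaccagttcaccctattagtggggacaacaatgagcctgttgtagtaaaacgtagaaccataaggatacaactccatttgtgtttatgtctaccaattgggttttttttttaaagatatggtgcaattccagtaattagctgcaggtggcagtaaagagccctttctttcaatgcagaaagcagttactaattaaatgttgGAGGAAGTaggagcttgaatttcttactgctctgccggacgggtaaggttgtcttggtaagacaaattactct
Tlr2: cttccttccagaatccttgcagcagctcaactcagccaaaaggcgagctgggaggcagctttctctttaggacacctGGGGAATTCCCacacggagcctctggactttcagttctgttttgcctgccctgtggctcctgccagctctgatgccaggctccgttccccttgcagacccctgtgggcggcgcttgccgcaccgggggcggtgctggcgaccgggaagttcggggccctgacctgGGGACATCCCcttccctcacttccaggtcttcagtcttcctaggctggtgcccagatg

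With the start counted as 0, the Tlr9 window held 1 AP-1 match at -58 to -52 and 1 PU.1 match at 10 to 17, on the opposite strand. The Tlr1 window held 1 PU.1 match at -23 to -16. A second window is listed for Tlr1 (chr5:64932650-64932949, minus strand), and it held no PU.1, AP-1 or NF-kappaB match. The Tlr2 window held 3 NF-kappaB matches, of which those from -173 and from -172 overlap and the last begins at -8. Among all 32851 listed windows, 7.81% held an AP-1 match, 3.20% a PU.1 match and 8.46% an NF-kappaB match. The interferon motifs ISRE (in 3.44% of all windows) and GAS (TTCNNNGAA, in 8.30%) were also searched. They had no match in the 3 windows shown, and the second Tlr1 window held 1 GAS match at -228 to -220. These are matches of letters only.

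The tissue was checked by its markers: the keratinocyte gene Krt14 (6740 to 20003 TPM), the fibroblast gene Col1a1 (2704 to 7051 TPM) and the macrophage gene Cd68 (425 to 1732 TPM) were present in all 12. CAP day 6 replicate 2 stood apart. Its median correlation with the other libraries was 0.950, against a range that began at 0.968 for the other 11 (over 14414 genes), it held the most Krt10 (40801 TPM, against 4187 to 19544 TPM in the others), and it had the lowest value of all 12 libraries for 7 of the 10 receptors. The day 6 differences of receptors and of pathway genes that passed are given with and without it. Since the tables were of whole tissue, fewer cells of a type and less RNA per cell cannot be told apart.

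In level, the receptors spanned a wide range in TPM, a scale that corrects for transcript length. Tlr13, a sensor of bacterial ribosomal RNA, was the most abundant (42.0 ± 15.1 TPM, SD, n = 12) and exceeded the next gene, Tlr7, in 11 of 12 libraries. Tlr7 (27.4 ± 7.32 TPM) and Tlr8 (24.3 ± 7.81 TPM), which belong to the sensors of single-stranded RNA, and Tlr2 (23.9 ± 6.93 TPM), the common partner in lipoprotein recognition, followed. The lipoprotein co-receptor Tlr1 had 18.6 ± 5.92 TPM and the lipopolysaccharide receptor Tlr4 16.1 ± 3.79 TPM. The CpG DNA sensor Tlr9 had 11.5 ± 3.94 TPM and lay below Tlr4 in 11 of 12 libraries. The flagellin receptor Tlr5 had 8.16 ± 2.28 TPM, the double-stranded RNA sensor Tlr3 8.10 ± 1.84 TPM and the other lipoprotein co-receptor, Tlr6, 7.99 ± 2.56 TPM. All neighbours in this order differed by less than the larger of their SDs, with the exception of Tlr4 and Tlr9.

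**Figure D1:**
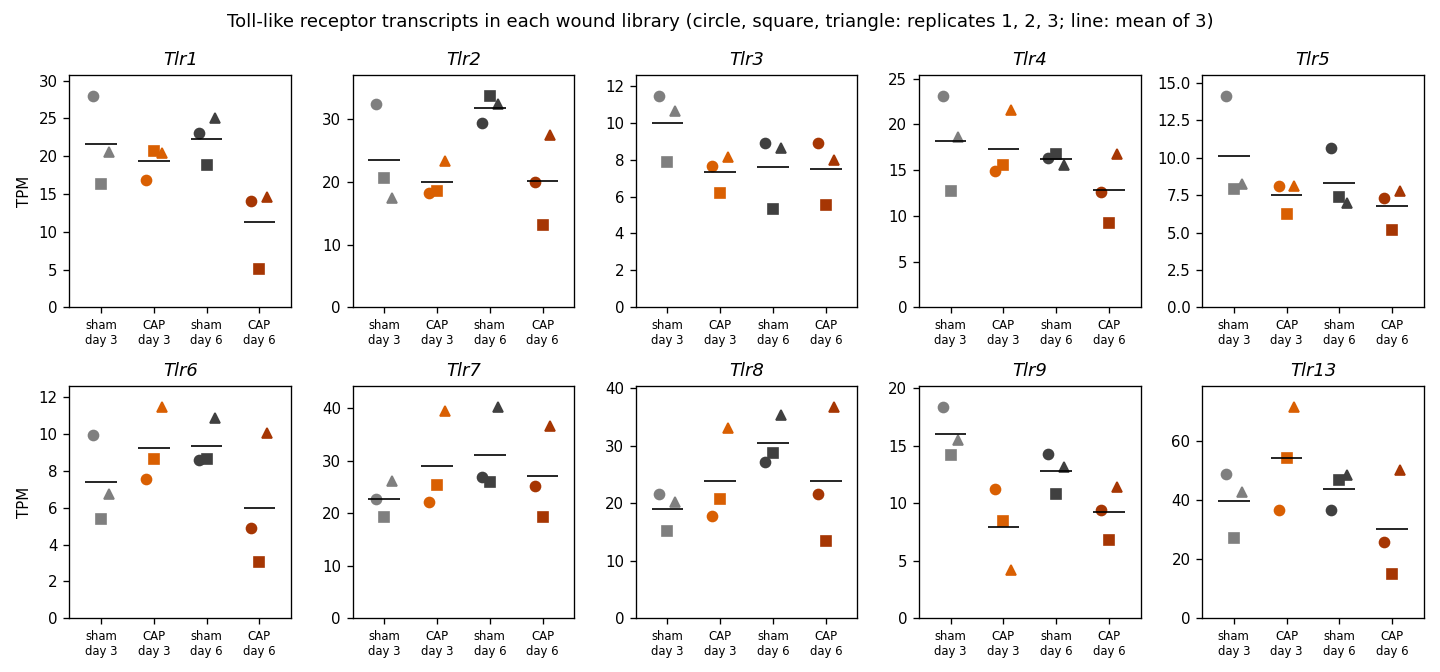
TPM (y axis, from 0) of each of the 10 receptors in the 12 libraries, by group (x axis); circle, square and triangle are replicates 1, 2 and 3 of a group, and the line is the mean of 3. Tlr9 at day 3 is a panel in which the 3 CAP libraries (4.19 to 11.2 TPM) lie below the 3 sham libraries (14.2 to 18.4 TPM), and CAP day 6 replicate 2 (last square) is low in most panels.

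The first comparison asked which receptors differed between CAP-treated and sham wounds at day 3. A gene passed the test if its unadjusted limma p was below 0.05 and its level differed at least 2-fold. Tlr9 was the 1 receptor of 10 that passed, and it was lower in CAP-treated wounds. It had 18.4, 14.2 and 15.5 TPM in the sham libraries and 11.2, 8.42 and 4.19 TPM in the CAP libraries. Every CAP library lay below every sham library, and the lowest value was in CAP replicate 3. The mean was 7.93 ± 3.53 TPM against 16.0 ± 2.15 TPM (SD, n = 3 each), a log2 difference of -1.10 (95% CI, -1.92 to -0.29; limma adjusted p = 0.646). The exact permutation p was 0.1, the smallest that 3 against 3 allows. Among all 18330 genes tested, 1.16% passed in this direction and 8.75% were lower without overlap, and no receptor passed after adjustment. Without CAP replicate 3 the Tlr9 difference was -0.71 and no longer reached 2-fold. Tlr11, kept apart from the 10 for its low level, also passed as lower (log2 difference, -1.16). It had 0.57 to 0.89 TPM in sham and 0.11 to 0.40 TPM in CAP libraries, without overlap and close to the filter of 0.3 TPM.

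The other 9 receptors overlapped between the groups at day 3. For the endosomal RNA sensors Tlr13, Tlr7 and Tlr8 the highest value of the day was in CAP replicate 3, which had the lowest value of Tlr9. Tlr13 had 49.1, 27.2 and 42.7 TPM in sham and 36.7, 54.4 and 71.7 TPM in CAP libraries. Tlr7 had 22.7, 19.2 and 26.1 TPM against 22.0, 25.3 and 39.4 TPM, and Tlr8 had 21.5, 15.2 and 20.1 TPM against 17.8, 20.6 and 33.0 TPM. Sham replicate 1 lay at the other side, with the highest value of all 12 libraries for 5 receptors. Tlr3 had 11.4, 7.86 and 10.6 TPM in sham and 7.66, 6.19 and 8.13 TPM in CAP libraries (log2 difference, -0.43; adjusted p = 0.766). The other receptors differed by -0.39 (Tlr5) to 0.44 (Tlr13) on the log2 scale. In all, 6 of 10 differences were below 0 (5 of 10 under median-ratio scaling or quantile normalization), beside 62.2% of all genes, and the median was -0.09, beside -0.05 for all genes. Without sham replicate 1 the median of the receptors was 0.11, with 3 of 10 below 0. Calls over all genes were 212 lower and 78 higher, 178 lower and 93 higher under median-ratio scaling and 158 lower and 105 higher under quantile normalization, and Tlr9 passed under each.

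Relative to the summed receptor transcripts, a measure built from the same TPM values, Tlr9 was among the receptors that differed at day 3. Its share of the summed TPM of the 10 receptors was 7.96%, 9.66% and 8.29% in sham and 6.95%, 4.56% and 1.74% in CAP libraries, which did not overlap. The shares of Tlr3 (4.96% to 5.68% in sham and 3.35% to 4.76% in CAP libraries) did not overlap either. The same held for Tlr6 (3.63% to 4.32% and 4.67% to 4.76%) and Tlr8 (9.32% to 10.8% and 11.1% to 13.7%), which were higher with CAP. Tlr13 held 20.9 ± 2.17% in sham and 27.3 ± 3.93% in CAP libraries (SD, n = 3 each), with ranges that overlapped. The summed level itself was 188 ± 42.1 TPM in sham and 196 ± 41.3 TPM in CAP libraries, which differed by less than the spread between libraries. At day 6 the share of Tlr9 did not separate the groups, at 5.34% to 7.09% in sham and 5.18% to 7.13% in CAP libraries. Shares within the family have no counterpart over all genes, so that no background is given for them.

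At day 3, 2 markers of recruited monocytes were lower with CAP, as Tlr9 was. Ccr2, the chemokine receptor of these cells, had 107, 78.0 and 91.3 TPM in sham and 49.2, 34.4 and 28.2 TPM in CAP libraries (log2 difference, -1.33; adjusted p = 0.500). Ly6c2 had 53.9, 87.0 and 79.8 TPM against 30.4, 16.5 and 4.16 TPM (-2.48; adjusted p = 0.562). Of the 10 monocyte and macrophage markers these 2 passed the test, both lower, beside 1.16% of all genes, and none passed as higher. Both also passed without CAP replicate 3. The differences of the 10 were split, with 5 below and 5 above 0 (median, 0.04), among the latter Cd68 (0.40), Lyz2 (0.64) and Mertk (0.67). The summed level of the 10 was 4084 to 5838 TPM in sham and 4786 to 10343 TPM in CAP libraries. Other lists were below 0 throughout, beside 62.2% of all genes, with none that passed. They were the 5 dendritic cell markers tested (median, -0.49), the 6 fibroblast markers (median, -0.48) and the 4 skeletal muscle markers (median, -0.60). The 8 neutrophil markers were split, with 4 below and 4 above 0. Plasmacytoid dendritic cells are known for Tlr9. Siglech, which defines these cells, had 0.283 to 1.28 TPM in the 12 libraries. Of the 3 markers of these cells that were tested at day 3, 2 were below 0 and 1 above (median, -0.46), and 0 passed. The 4 listed markers summed to 45.3 to 58.8 TPM in sham and 24.1 to 57.6 TPM in CAP libraries. Cox6a2, which is also a gene of striated muscle, held most of that (41.8 to 54.2 and 22.0 to 53.9 TPM). All 5 erythroid markers, among them the globin genes, passed as higher with CAP, beside 0.426% of all genes, and 3 of them (Hba-a1, Hba-a2 and Hbb-bt) had an adjusted p below 0.05. They stood at a summed 2356 to 2803 TPM against 514 to 753 TPM in sham wounds. Of the 7 T and NK cell markers, 2 passed and were lower, beside 1.16% of all genes, namely Cd2 (-1.01; adjusted p = 0.711) and Ncr1 (-1.52; adjusted p = 0.500), at a summed 24.3 to 26.4 TPM against 24.6 to 34.2 TPM. The part of these markers in the Tlr9 result was not tested.

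**Figure D2:**
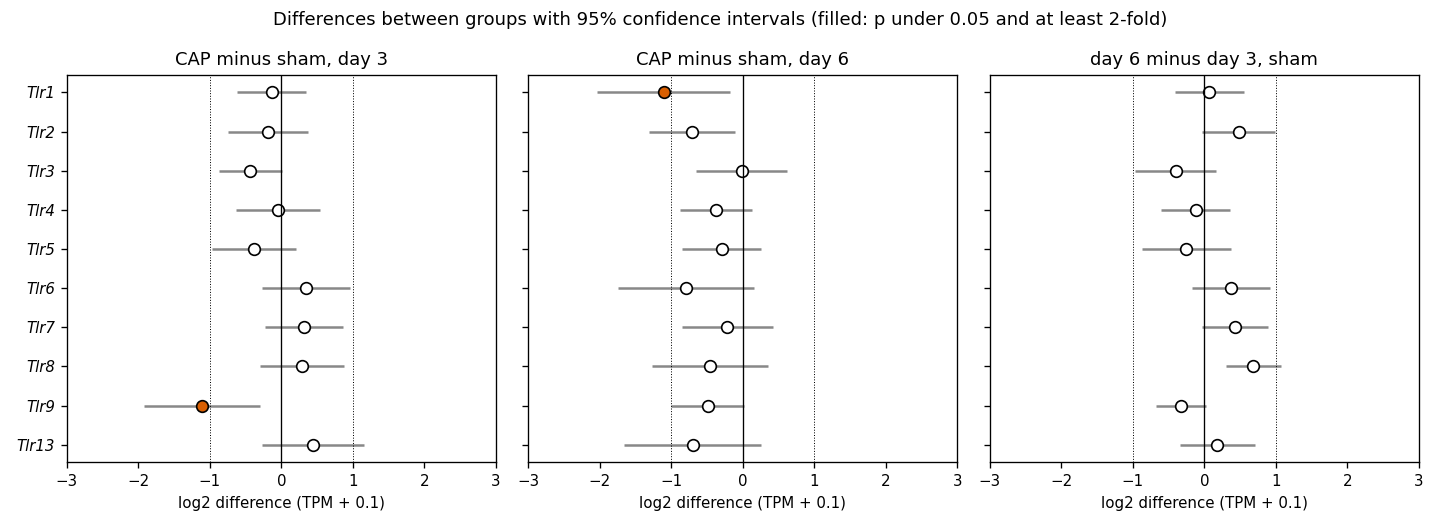
Log2 difference of TPM + 0.1 (x axis) for each receptor (y axis) in 3 comparisons: CAP minus sham at day 3, CAP minus sham at day 6, and day 6 minus day 3 in sham wounds. Bars are 95% confidence intervals, dotted lines mark 2-fold, and filled points passed the test: Tlr9 at day 3 (-1.10) and Tlr1 at day 6 (-1.11).

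At day 6, Tlr1 was the 1 receptor of 10 that passed the test between CAP-treated and sham wounds, and it was lower with CAP. It had 23.0, 18.8 and 25.0 TPM in the sham libraries and 14.1, 5.14 and 14.7 TPM in the CAP libraries. The groups did not overlap, and CAP replicate 2 was far below the other values. The mean was 11.3 ± 5.34 TPM against 22.3 ± 3.18 TPM (SD, n = 3 each), a log2 difference of -1.11 (95% CI, -2.04 to -0.17; limma adjusted p = 0.229). The exact permutation p was 0.1, the smallest possible. Without CAP replicate 2 the difference was -0.62, below 2-fold. Among all 18323 genes tested, 2.34% passed in this direction, 18.0% were lower without overlap, and none passed after adjustment (2294 lower and 1223 higher at an unadjusted p below 0.05).

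Tlr2, the partner of Tlr1 and of Tlr6, also separated the groups at day 6. It had 29.3, 33.7 and 32.4 TPM in sham and 20.0, 13.2 and 27.5 TPM in CAP libraries. All 3 CAP libraries were lower, at a mean of 20.2 ± 7.16 TPM against 31.8 ± 2.25 TPM (SD, n = 3 each). The log2 difference was -0.71 (95% CI, -1.31 to -0.11; adjusted p = 0.229), short of 2-fold, and -0.44 without CAP replicate 2. Tlr6 had 8.59, 8.66 and 10.8 TPM in sham and 4.91, 3.03 and 10.1 TPM in CAP libraries. Here CAP replicate 3 lay within the sham range (log2 difference, -0.80; adjusted p = 0.314), and the difference was -0.40 without CAP replicate 2.

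The endosomal receptors overlapped between the groups at day 6. Tlr13 had 36.6, 46.7 and 48.5 TPM in sham and 25.7, 14.9 and 50.4 TPM in CAP libraries, so that the CAP libraries contained both the lowest and the highest value (log2 difference, -0.70; adjusted p = 0.365). The difference of Tlr13 was -0.28 without CAP replicate 2. Tlr8 had 27.2, 28.8 and 35.3 TPM against 21.5, 13.4 and 36.7 TPM, and Tlr7 had 26.9, 25.9 and 40.2 TPM against 25.2, 19.3 and 36.6 TPM. In both, CAP replicate 2 was the lowest of the 6, and CAP replicate 3 was the highest (Tlr8) or second to sham replicate 3 (Tlr7). Tlr9 had 14.3, 10.8 and 13.2 TPM against 9.41, 6.82 and 11.4 TPM. CAP replicate 3 alone overlapped the sham values of Tlr9 (log2 difference, -0.49; adjusted p = 0.271; exact permutation p = 0.2), and the difference was -0.29 without CAP replicate 2. Tlr3 was at 5.32 to 8.89 TPM against 5.54 to 8.89 TPM, with a 95% CI of the log2 difference from -0.65 to 0.61. Without CAP replicate 2 the remaining receptors lay between -0.16 (Tlr4) and 0.18 (Tlr3). Among the surface receptors, Tlr4 had 16.3, 16.8 and 15.6 TPM against 12.6, 9.26 and 16.8 TPM and Tlr5 10.6, 7.34 and 6.99 TPM against 7.31, 5.17 and 7.75 TPM.

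Taking the family as a whole at day 6, all 10 differences were below 0, beside 65.7% of all genes, and 9 of 10 were under median-ratio scaling and under quantile normalization. The 3 CAP libraries were far from alike, with a summed TPM of the 10 receptors of 202, 203 and 237 in sham and 149.7, 95.6 and 219.8 in CAP libraries. Without CAP replicate 2, 9 of 10 differences were below 0, the median moved from -0.47 to -0.22 and no receptor passed. By contrast, without CAP replicate 3, Tlr1, Tlr6 and Tlr13 passed, Tlr6 at -1.25 (adjusted p = 0.0421) and Tlr13 at -1.15 (adjusted p = 0.0477). Tlr2 was then at -0.96 (adjusted p = 0.0423), short of 2-fold, and 1430 genes had an adjusted p below 0.05. Median-ratio scaling moved the median of all genes from -0.12 to -0.01 and that of the receptors to -0.36. In that scaling Tlr1 fell just short of 2-fold, and calls over all genes shifted from 429 lower and 268 higher to 298 lower and 393 higher, and to 253 lower and 409 higher under quantile normalization.

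Myeloid markers and keratins differed at day 6 as well. Among all genes at day 6, 65.7% had a difference below 0 (median, -0.12) and 2.34% passed as lower. All 10 monocyte and macrophage markers had a difference below 0 (median, -0.52), under both scalings too, and 2 passed, both lower: Itgam (-1.04; adjusted p = 0.250) and Ccr2 (-1.04; adjusted p = 0.250). None of the 10 passed without CAP replicate 2 (median, -0.29) or under either scaling. Their summed level was 7077 to 10180 TPM in sham and 4175 to 9355 TPM in CAP libraries. All 7 neutrophil markers tested had a difference below 0 (median, -1.19, and -0.62 without CAP replicate 2), and 1 passed (Mmp9, -1.19; adjusted p = 0.205). The suprabasal keratins Krt1 (19616 against 5150 TPM; log2 difference, 1.86) and Krt10 (25778 against 7748 TPM; 1.62) passed and were higher in all 3 CAP libraries, beside 1.46% of all genes, also without CAP replicate 2. Of the 4 endothelial markers, Pecam1 (just over 2-fold; adjusted p = 0.246) and Cdh5 (-1.15; adjusted p = 0.249) passed and were lower. None of the 4 passed without CAP replicate 2, when the median went from -1.05 to -0.51, or without any one of the sham replicates, and 1 passed under either scaling. The 4 summed to 61.5 to 167 TPM in CAP and 198 to 262 TPM in sham libraries. The part of these markers in the receptor results was not tested.

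Over both days, the mean difference of Tlr9 was -0.80 (95% CI, -1.28 to -0.31; limma adjusted p = 0.144; exact permutation p within days = 0.01). It lay at -0.95 to -0.60 when single libraries were left out. The corresponding values were -0.62 for Tlr1 (adjusted p = 0.225; exact permutation p = 0.04) and -0.45 for Tlr2 (adjusted p = 0.241; exact permutation p = 0.075). When single libraries were left out these were -0.75 to -0.37 for Tlr1, with -0.37 without CAP day 6 replicate 2, and -0.58 to -0.31 for Tlr2. These 3 receptors had an unadjusted p below 0.05 and a lower level with CAP, beside 14.3% of 17784 genes. The pathway genes that passed over both days were Irf7 (-1.17), Il6 (-1.21), Cxcl10 (-1.52), Cxcl1 (-1.10) and Tnc (-1.14), all lower, with adjusted p of 0.140 to 0.204. Cxcl10 passed whichever library was left out, whereas Irf7 did not without CAP day 3 replicate 2 (-0.91), Il6, Cxcl1 and Tnc did not without sham day 3 replicate 1 or CAP day 6 replicate 2, and Cxcl1 did not without CAP day 3 replicate 1. No receptor reached 2-fold over both days, beside 0.860% of all genes that passed in this direction, and no gene passed after adjustment (2546 lower and 751 higher at an unadjusted p below 0.05).

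Whether the CAP difference itself changed between the days was tested with an interaction term. No receptor passed, beside 4.09% of all genes. On the log2 scale, day 6 minus day 3, the differences were -1.14 for Tlr6 (adjusted p = 0.438), -1.14 for Tlr13 (adjusted p = 0.448) and -0.98 for Tlr1 (adjusted p = 0.453). Without CAP day 6 replicate 2 these were -0.74 for Tlr6, -0.72 for Tlr13 and -0.49 for Tlr1. For Tlr9 the value was 0.62 (95% CI, -0.35 to 1.58; adjusted p = 0.567). This interval includes 0, so that a larger CAP difference of Tlr9 at day 3 than at day 6 was not shown.

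In sham wounds alone, day 6 was compared with day 3. Tlr8 had 21.5, 15.2 and 20.1 TPM at day 3 and 27.2, 28.8 and 35.3 TPM at day 6, with no overlap. The mean was 30.4 ± 4.31 TPM against 18.9 ± 3.31 TPM (SD, n = 3 each), a log2 difference of 0.69 (95% CI, 0.31 to 1.07; limma adjusted p = 0.0833; exact permutation p = 0.1), below 2-fold. Across all genes, 10.8% were higher at day 6 without overlap and 2.13% passed the test in that direction. Tlr2 (0.48; adjusted p = 0.342), Tlr7 (0.43; adjusted p = 0.345) and Tlr9 (-0.32; adjusted p = 0.351) overlapped between days. Of the 10 monocyte and macrophage markers, 7 had a difference above 0 and 3 below (median, 0.28). Among them, Lyz2 was at 0.99 (adjusted p = 0.0768). The monocyte marker Ly6c2, at -2.13 (adjusted p = 0.0115), was the 1 that passed, beside 1.61% of all genes that passed as lower. All 5 erythroid markers passed as higher. All 4 endothelial markers had a difference above 0 (median, 1.19), and 2 of them passed. The part of these markers in the Tlr8 result was not tested. Between the CAP groups, whose libraries also enter the comparisons above, Tlr1 had 16.9 to 20.7 TPM at day 3 and 5.14 to 14.7 TPM at day 6 without overlap (log2 difference, -0.91; adjusted p = 0.441; -0.42 without CAP day 6 replicate 2), beside 9.63% of all genes. No receptor passed there, beside 1.52% of all genes that passed as lower at day 6. The pathway genes that passed were Cd36 (-1.51; adjusted p = 0.346) and S100a8, a ligand of Tlr4 (-1.93; adjusted p = 0.432), both lower at day 6. Neither passed without CAP day 6 replicate 2 (-1.34 and -1.09), and S100a8 did not without CAP day 3 replicate 1 or 2 or CAP day 6 replicate 3. S100a8 also did not pass under 5 of the 8 alternatives that kept all libraries, both scalings among them.

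Across the 12 libraries the receptors varied together in groups. These correlations are descriptions over libraries of 4 groups that differ in tissue make-up, and they are given with no test. All include CAP day 6 replicate 2, which was low for most receptors, and none was computed without it. Removal of group means keeps its deviation from its own group. Tlr6 followed Tlr13 with r = 0.95 (0.95 after group means were removed), Tlr7 followed Tlr8 with r = 0.92 (0.93) and Tlr4 followed Tlr13 with r = 0.88 (0.90). The r of Tlr9 was -0.03 with Tlr13, -0.07 with Tlr8 and -0.26 with Tlr7, and its highest value was 0.56, with Tlr5.

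**Figure D3:**
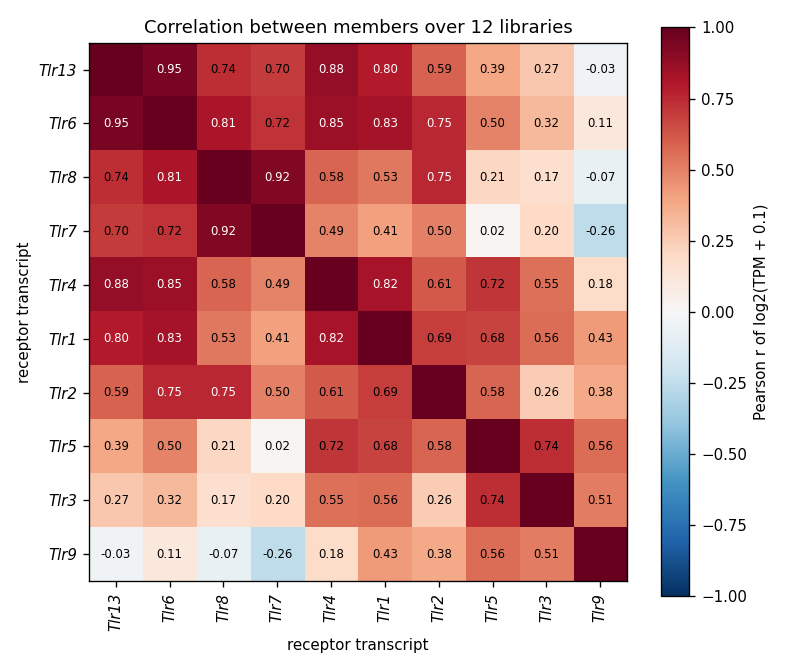
Pearson r of log2(TPM + 0.1) between each pair of receptors (both axes) over the 12 libraries, red for positive and blue for negative. Values among Tlr6, Tlr13, Tlr4 and Tlr1 are 0.80 to 0.95, and the row of Tlr9 runs from -0.26 to 0.56.

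Correlations with the 10 monocyte and macrophage markers differed between receptors. Tlr13 was closest to Cd68, a lysosomal protein of macrophages (r = 0.93), and Tlr8 to Lyz2, which encodes lysozyme (r = 0.93). Tlr7 was closest to Mertk, a receptor for the uptake of dead cells (r = 0.93). Tlr9 was closest to Ccr2 (r = 0.85, and 0.76 with group means removed) and Ly6c2 (0.83 and 0.84), and its r was -0.21 with Cd68 and -0.27 with Lyz2. The median r of Tlr9 was 0.15 with these 10, 0.34 with neutrophil, 0.05 with keratinocyte and -0.002 with T and NK cell markers. It was higher with dendritic cell (0.57), plasmacytoid dendritic cell (0.54) and B cell markers (0.40). Tlr1 had an r of -0.92 with the keratinocyte gene Krt10, among 6 keratinocyte markers that ran from -0.92 to 0.25. CAP day 6 replicate 2, with the lowest Tlr1 and the highest Krt10 of all libraries, enters this value.

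The 3 genes with the most similar pattern to each receptor were taken by r over the 12 libraries, from 15356 genes with a mean of 1 TPM or more in every group. They were Ms4a6b (0.91), Mosmo (0.91) and Gm9733 (0.89) for Tlr9. For Tlr1 they were Steap1 (0.97), Elk3 (0.97) and Zbtb38 (0.97), and for Tlr2 Apln (0.96), Picalm (0.96) and Prokr2 (0.96). Tlr13 was closest to Naip6 (0.98), Rin3 (0.98) and Gm15922 (0.97), and Tlr6 to Specc1 (0.98), Pla2g7 (0.98) and Cd63 (0.98). The most similar to Tlr7 were Abcg1 (0.96), Slc36a1 (0.95) and Mmp27 (0.95), and to Tlr8 Acox3 (0.98), Asah1 (0.97) and Abcg3 (0.97). Tlr4 had Zyx (0.97), Vsir (0.96) and Cic (0.96), Tlr3 had Cln6 (0.94), Wls (0.89) and Aldh7a1 (0.89), and Tlr5 had Afap1 (0.95), Zic1 (0.94) and Kcnd1 (0.94). Each is the highest of many values.

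The pathway around the receptors was then described by role. Co-receptors and chaperones present ligands to the receptors or bring them to their compartments. At day 3, 1 of 9 passed: Cd36, a scavenger receptor that assists Tlr2 and Tlr6, had 75.9, 97.4 and 94.3 TPM in sham and 111, 206 and 394 TPM in CAP libraries. Every CAP value was above every sham value (log2 difference, 1.23; adjusted p = 0.692). Among all genes, 0.426% passed in this direction and 2.86% were higher without overlap. Without CAP replicate 3 the difference was 0.77, short of 2-fold, and it did not pass without sham replicate 1 (1.12) or CAP replicate 2 (1.23) either. Ly86, the partner of Cd180, had 47.7 ± 7.31 TPM against 76.0 ± 4.47 TPM in sham wounds (SD, n = 3 each; log2 difference, -0.68; adjusted p = 0.500), without overlap and short of 2-fold. Lower without overlap at day 3 were 8.75% of all genes. At day 6, all 9 had a difference below 0 (median, -0.48), beside 65.7% of all genes (median, -0.12). All 9 were also below 0 under both scalings, and 8 of 9 without CAP replicate 2. The 1 that passed was Lbp, the lipopolysaccharide binding protein, with 354, 251 and 316 TPM in sham and 173, 72.6 and 194 TPM in CAP libraries. The groups did not overlap (log2 difference, -1.18; adjusted p = 0.216), and the difference was -0.73, short of 2-fold, without CAP replicate 2. Among all genes at day 6, 2.34% passed as lower and 18.0% were lower without overlap. In sham wounds 1 of 9 passed, beside 2.13% of all genes that passed as higher at day 6. Lbp rose from 115 ± 10.2 TPM at day 3 to 307 ± 52.1 TPM at day 6 (SD, n = 3 each; log2 difference, 1.41; adjusted p = 0.0132).

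Among the signalling proteins of the cytoplasm, none of the 4 adaptors tested, of the 15 kinases and ubiquitin ligases or of the 7 inhibitors passed at day 3 or at day 6. Myd88 had 71.0 ± 2.66 TPM in CAP-treated and 88.6 ± 14.5 TPM in sham wounds at day 3 (SD, n = 3 each; log2 difference, -0.31; adjusted p = 0.746). Tirap, which links Myd88 to Tlr2 and Tlr4, had a log2 difference of -0.67 at day 6 (adjusted p = 0.234). The kinases and ligases with the smallest p at day 6 were Traf3 (-0.73; adjusted p = 0.205), which couples the receptors to interferon induction, and Traf6 (0.39; adjusted p = 0.217), which couples them to NF-kappaB. Neither overlapped between groups, beside 18.0% of all genes that were lower and 8.01% that were higher without overlap. The inhibitor with the smallest p at day 6 was Nfkbia, which retains NF-kappaB in the cytoplasm (-0.49; adjusted p = 0.238).

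Of the 6 transcription factors, Irf7, which acts downstream of Tlr7 and Tlr9 and is itself an interferon target, passed at day 3. It had 183, 201 and 199 TPM in sham and 98.8, 22.0 and 42.4 TPM in CAP libraries, without overlap (log2 difference, -2.10; adjusted p = 0.500). The difference was -2.06 without CAP replicate 3. Among all genes at day 3, 1.16% passed as lower and 8.75% were lower without overlap. In sham wounds Irf7 fell from 195 ± 9.75 TPM at day 3 to 41.1 ± 4.85 TPM at day 6 (SD, n = 3 each; log2 difference, -2.24; adjusted p = 0.00133), beside 1.61% of all genes that passed as lower. None of the 6 passed at day 6. The CAP difference of Irf7 was 1.86 higher at day 6 than at day 3 on the log2 scale. It passed the test of the interaction (adjusted p = 0.424), beside 4.09% of all genes.

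Several cytokines and chemokines are known to be induced by receptor signalling, and 10 of them were listed. At day 3, 6 of 8 tested had a difference below 0, beside 62.2% of all genes, and 2 above 0 (highest, Cxcl2 at 0.95; adjusted p = 0.834). Of the 8, 2 passed, both lower, beside 1.16% of all genes: Cxcl10 (-1.30; adjusted p = 0.744), whose groups overlapped, and Ccl5 (-1.09; adjusted p = 0.732), whose groups did not. Lower without overlap were 8.75% of all genes. Of these 8, 1 passed under median-ratio scaling and 0 under quantile normalization or without CAP replicate 3. Cxcl10 did not pass without sham replicate 1, 2 or 3 or CAP replicate 2 or 3 (-1.90 to -0.78 when single libraries were left out). Ccl5 did not without sham replicate 2 or 3 or CAP replicate 2 or 3 (-1.43 to -0.70). Of the 8 alternatives that kept all libraries, Cxcl10 did not pass under 4 and Ccl5 under 3. At day 6, 8 of 9 tested had a difference below 0, beside 65.7% of all genes. Of the 9, 4 passed, all lower, beside 2.34% of all genes. Cxcl1, a neutrophil chemoattractant, had 38.0, 51.2 and 36.5 TPM in sham and 20.1, 6.83 and 16.6 TPM in CAP libraries (-1.65; adjusted p = 0.206). Il6 had 5.95, 13.5 and 6.63 TPM against 4.27, 1.26 and 2.82 TPM (-1.66; adjusted p = 0.212). Neither gene overlapped between groups, beside 18.0% of all genes that were lower without overlap. Ptgs2, the inducible cyclooxygenase (-1.36; adjusted p = 0.217), and Cxcl10 (-1.75; adjusted p = 0.225) were also lower, with overlap. Without CAP replicate 2, Cxcl1 was at -1.18, Il6 at -1.20 and Ptgs2 at -1.12, and Cxcl10, at -1.22, no longer passed. Cxcl10 also did not pass without sham replicate 1 or 2 or CAP replicate 3, and Ptgs2 did not without sham replicate 1 or 2 or CAP replicate 1. The median difference of the 9 was -1.41, and -0.66 without that library. In sham wounds 4 of 9 passed as higher at day 6 than at day 3, beside 2.13% of all genes. They were Tnf (1.15; adjusted p = 0.0531), Cxcl2 (2.24; adjusted p = 0.0865), Ptgs2 (1.65; adjusted p = 0.0931) and Il1b (1.45; adjusted p = 0.255). The count of 4 became 2 without sham day 3 replicate 3 or without sham day 6 replicate 2. Il1b did not pass under 2 of the 8 alternatives that kept all libraries.

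Among the 5 endogenous ligands, none passed at day 3 and 1 passed at day 6. Across all genes at day 6, 2.34% passed as lower and 18.0% were lower without overlap. Tnc, an extracellular matrix protein of wounds that can activate Tlr4, had 319, 378 and 280.1 TPM in sham and 136, 38.3 and 225 TPM in CAP libraries (-1.61; adjusted p = 0.233), without overlap. Its difference was -0.88 without CAP replicate 2, and it did not pass without any one of the sham replicates either (-2.16 to -0.88 when single libraries were left out). The matrix proteoglycan Bgn was at -0.49 at day 6 (adjusted p = 0.246). In sham wounds Bgn rose from day 3 to day 6 (1.02; adjusted p = 0.0543), just past 2-fold, beside 2.13% of all genes that passed as higher. It did not pass without sham day 3 replicate 2 or 3 or without sham day 6 replicate 1 or 3.

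**Figure D4:**
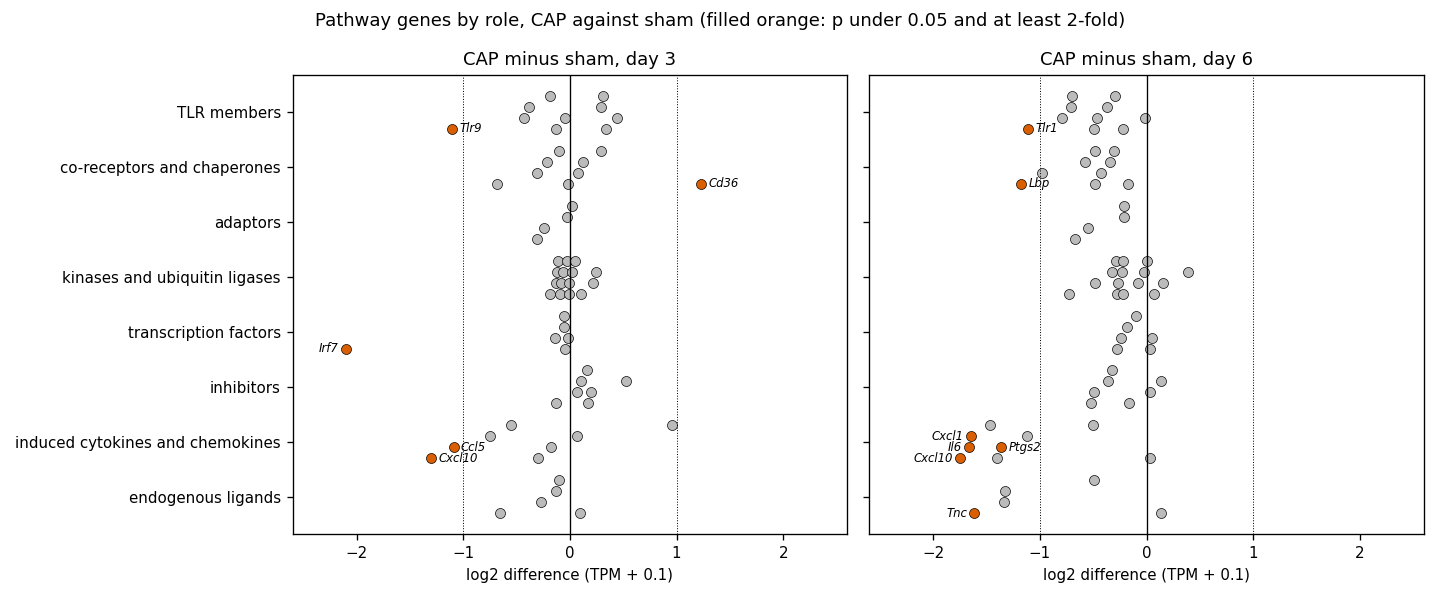
Log2 difference of TPM + 0.1 between CAP-treated and sham wounds (x axis) for the receptors and for each group of pathway genes by role (y axis), at day 3 (left) and day 6 (right). Each point is 1 gene, dotted lines mark 2-fold, and named orange points passed the test; at day 6 they are 4 induced cytokines and chemokines (Cxcl1, Il6, Ptgs2, Cxcl10), Tlr1, Lbp and Tnc.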

How the data were processed

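Messenger RNA of 12 wound libraries was sequenced, and the authors deposited 1 table per library with the position of each gene and its TPM value, estimated with StringTie. Per the labels' processing notes, reads were trimmed with Trimmomatic 0.36 and mm10 was the build. No source used here gives the aligner, the annotation release or the handling of strand. TPM keeps no read depth, so that depth is unknown and no counting interval is given. Differences were fitted with limma 3.58.1 (R 4.3.3; trend, two-sided) on log2(TPM + 0.1) over genes whose mean reached 0.3 TPM in each group compared, with the 2 groups alone or, for both days, with all 4. A fold on this scale understates the change of low genes. A gene passed with an unadjusted p under 0.05 and at least 2-fold, the form of the authors' own threshold. Adjusted p-values (Benjamini-Hochberg) run over all genes tested, and the exact permutation test over libraries was two-sided. The fit was tested on simulated data.

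All 10 receptors are named in each comparison. Pathway genes are named where they passed or had the smallest p of their group, and for each receptor the 3 genes with the most similar pattern are named. Receptor differences are given singly where p was under 0.1 or where they passed under an alternative; those of Tlr9 over both days are also given, and further ones where a sentence is about the gene. Members and gene lists were chosen with earlier results of these data known. Sequences came from GENCODE M21 (GRCm38), whose coordinates equal those of the files for 54863 of 55487 genes, and from RefSeq (Python 3.11.15, Biopython 1.88). Alternatives were other pseudocounts, no filter, median-ratio and quantile scaling, a replicate block, a joint fit, each library left out, and, chosen after seeing the data, a correction for GC content and length and the list counts without single libraries.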

Additional observations from a re-analysis of the deposited data

Results flagged for a closer look

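The test of the difference of the CAP effects between days (log2, day 6 minus day 3) passed for no receptor and for 20 other listed genes, beside 4.09% of all genes, with limma adjusted p of 0.424 to 0.436. Among the pathway genes they were Irf7 (1.86) and Cd36 (-1.40). Among the monocyte and macrophage markers they were Itgam (-1.43), Lyz2 (-1.15) and Ly6c2 (2.13), and among the neutrophil markers Retnlg (-2.42), Mmp8 (-3.78) and Mmp9 (-1.42). The T and NK cell markers were Cd2 (1.12), Nkg7 (1.37) and Ncr1 (1.47) and the keratinocyte markers Krt1 (1.93) and Krt10 (1.65). The erythroid markers were Hba-a1 (-3.22), Hba-a2 (-3.24), Hbb-bs (-3.20), Hbb-bt (-3.19) and Alas2 (-3.34), whose globin copies may share reads, and the platelet markers Pf4 (-1.35) and Ppbp (-2.34).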

How the results depend on the processing

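The direction of each receptor difference that passed was the same under all alternatives. At day 3, 1 receptor (Tlr9) passed under the other alternatives, and 0 to 1 when single libraries were left out, with 0 without CAP replicate 3. At day 6, the count was 0 under median-ratio scaling and 0 under quantile normalization (Tlr1 at -0.96), and 0 to 3 when single libraries were left out. It was 0 without sham replicate 1 (Tlr1, -1.08), without sham replicate 3 or without CAP replicate 2, and 3 without CAP replicate 3. For the difference of the CAP effects between days, the count of 0 became 1 under quantile normalization (Tlr6, -1.06) and 0 to 4 when single libraries were left out, with 2 without sham day 3 replicate 1, 1 without CAP day 3 replicate 1 or CAP day 6 replicate 1, and 4 without CAP day 6 replicate 3. Between the CAP groups it was 0 to 3 when single libraries were left out, with 1 without day 6 replicate 1 and 3 without day 6 replicate 3. In sham wounds and over both days it was 0 under every alternative. With the replicate number as a block, 2 receptors (Tlr6 and Tlr13) passed for the difference of the CAP effects, against 0 without the block, and the counts of the other comparisons were the same. Pairing of the libraries by number was not established: deviations of same-numbered libraries correlated at -0.108 to 0.222. All 3 matched their own number best only between CAP and sham at day 6. With the block, 266 genes had a limma adjusted p under 0.05 over both days, against 0 without it. Tlr9 was not among these genes. Of 940 receptor differences under alternatives, 44 had the opposite sign, none of a receptor that passed, and all were within 0.29 of 0 under both settings. The GC and length correction, chosen after seeing the data, left Tlr9 at day 3 past the threshold. With 3 libraries per group and unknown depth, an adjusted p under 0.05 was not reached by any receptor in the fit reported. Between CAP and sham at day 6 without CAP replicate 3, it was reached for Tlr2, Tlr6 and Tlr13, and 1430 genes did so. For Tlr2 in sham wounds, day 6 against day 3, the lowest limma adjusted p with 1 library left out was 0.0355.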
